A study of Mus musculus with 5 samples.

Results

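The tumour suppressor p53 (gene Trp53), its inhibitor Mdm2 and 8 classic p53 targets were followed in mouse erythroblasts, the marrow cells that mature into red cells, labelled Flvcr-deleted or wild-type. The genes are Trp53, Mdm2, Ccng1, Zmat3, Trp53inp1, Phlda3, Ei24, Aen, Ddb2 and Gadd45a, taken as p53, its inhibitor and classic targets other than the cell cycle inhibitor p21 (Cdkn1a) and the BCL2 family. Every probe that the platform annotation assigns to one of these symbols was used, 22 of the 45281 probes in the table, and they cover 9 of the 10 genes. Trp53 itself was not analysed here, since no probe carries its symbol, so the level of the p53 transcript is unknown in what follows. A probe was kept where it lay above a background floor of 6.83, on the log2 scale used throughout, on at least 2 arrays, and 19 of the 22 were kept.

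The 5 bead arrays were made from total RNA of erythroblasts of C57BL/6J marrow, 2 with the genotype label Flvcr deleted and 3 with the label wild type. Flvcr (Flvcr1) codes for a protein that carries heme out of the cell. The labels give neither the age of the mice, nor the way in which the gene was deleted, nor how erythroblasts were obtained, nor whether arrays of a group came from separate animals. P-values therefore cover the spread of these arrays alone, which may be technical.

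The transcription factor p53 is kept scarce by MDM2, a ubiquitin ligase that p53 itself induces, so that the pair form a feedback loop. When DNA damage, nucleolar stress or nucleotide shortage frees p53 from MDM2, it binds paired half-sites in DNA and raises the transcription of genes that halt the cell cycle, repair DNA, counter oxidants or start cell death. In erythroblasts, p53 is best known for its activation when ribosome production is impaired, as in mouse models and patients with Diamond-Blackfan anaemia. Most of the genes followed here also have other regulators. Gadd45a is induced by the stress factor ATF4 and by FOXO factors too.

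The DNA next to the start of transcription is shown for 4 of the members whose RefSeq promoter window (GRCm38.p6, 250 bases before to 50 after the start site) holds the p53 half-site consensus. It is shown because these are the letters p53 reads, and because the members that hold them did not move alike. A window was found for 7 of the 10 members, and Zmat3, Trp53inp1 and Ddb2 have none here. The consensus is its own reverse complement, so a single scan covered both strands. It was present with no mismatch in 6 of the 7 members, Trp53, Mdm2, Ccng1, Ei24, Aen and Gadd45a, but not in Phlda3 (Trp53, which has no probe, and Aen, close to the floor, are not printed), and in 8.36% of all 32851 windows. A full site of 2 half-sites with no gap, at most 1 mismatch and the central C and G of both half-sites in place was present in 22 windows, 0.067% of all. Among the members it was found in Ccng1 alone. Cdkn1a, the best known p53 target, holds another in the window of 1 start site. The window of its other start site (chr17:29093519-29093818) holds neither a half-site nor a full site. Each line runs 5′ to 3′ on the strand of the gene and ends at or before the start site, with consensus half-sites or the full site in capitals. Ccng1 is at chr11:40755422-40755521, Ei24 at chr9:36797335-36797384, Mdm2 at chr10:117710895-117710984 and Gadd45a at chr6:67037408-67037487, all on the minus strand, and Cdkn1a is at chr17:29090888-29090978 on the plus strand.
Ccng1: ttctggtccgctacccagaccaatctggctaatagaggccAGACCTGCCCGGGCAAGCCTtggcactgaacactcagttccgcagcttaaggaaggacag
Ei24: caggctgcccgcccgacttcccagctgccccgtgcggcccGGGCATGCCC
Mdm2: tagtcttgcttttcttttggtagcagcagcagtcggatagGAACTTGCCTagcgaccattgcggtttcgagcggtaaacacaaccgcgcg
Gadd45a: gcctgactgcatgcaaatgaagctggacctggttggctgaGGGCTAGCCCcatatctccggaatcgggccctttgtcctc
Cdkn1a: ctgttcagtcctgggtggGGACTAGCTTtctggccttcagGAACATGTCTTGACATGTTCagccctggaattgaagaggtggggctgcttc

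The Ccng1 full site lies at -195 to -176 relative to the start site, and the Ei24 half-site ends at the last base before it. A match of letters is a description of the window and does not show that p53 binds there. In Mdm2 and Gadd45a the p53 sites known to act lie inside introns, which these windows do not hold.

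The members did not move as one group. In the arrays labelled Flvcr-deleted 4 genes were higher, Ccng1, Zmat3, Ei24 and Phlda3, and 3 were lower, Trp53inp1, Mdm2 and Ddb2, while Gadd45a and Aen did not pass an adjusted p of 0.05 (limma, Benjamini-Hochberg over 9975 genes, each read from its kept probe of highest mean signal). On the log2 scale, the differences (labelled Flvcr-deleted over labelled wild-type) ran from 1.11 for Ccng1 to -0.82 for Trp53inp1 as fitted, although Zmat3 and Phlda3 have only a lower bound, with a median of 0.17, against a median of 0.01 over all genes tested. Over all genes tested, 39.7% were called, 22.0% higher and 17.7% lower. Zmat3 and Phlda3 were above the floor on the arrays labelled Flvcr-deleted only. A gene kept in that way had to read higher there, though it need not pass. The 7 calls among 9 members are therefore a description and not a sign that p53 targets respond more often than other genes. The groups did not overlap for 8 of the 9 members, against 59.5% of all genes, but for Zmat3 and Phlda3 the filter fixed this in advance. By probe, 12 of 19 passed in a fit over all kept probes, where 35.7% passed. The 12 include the Zmat3 probe and both Phlda3 probes, kept in the same way, so these counts are a description too. Single arrays decided part of these counts, since 2 members were higher without Flvcr-deleted replicate 1, and 1 was lower without Flvcr-deleted replicate 2 or without wild-type replicate 1 or 3.

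**Figure D1:**
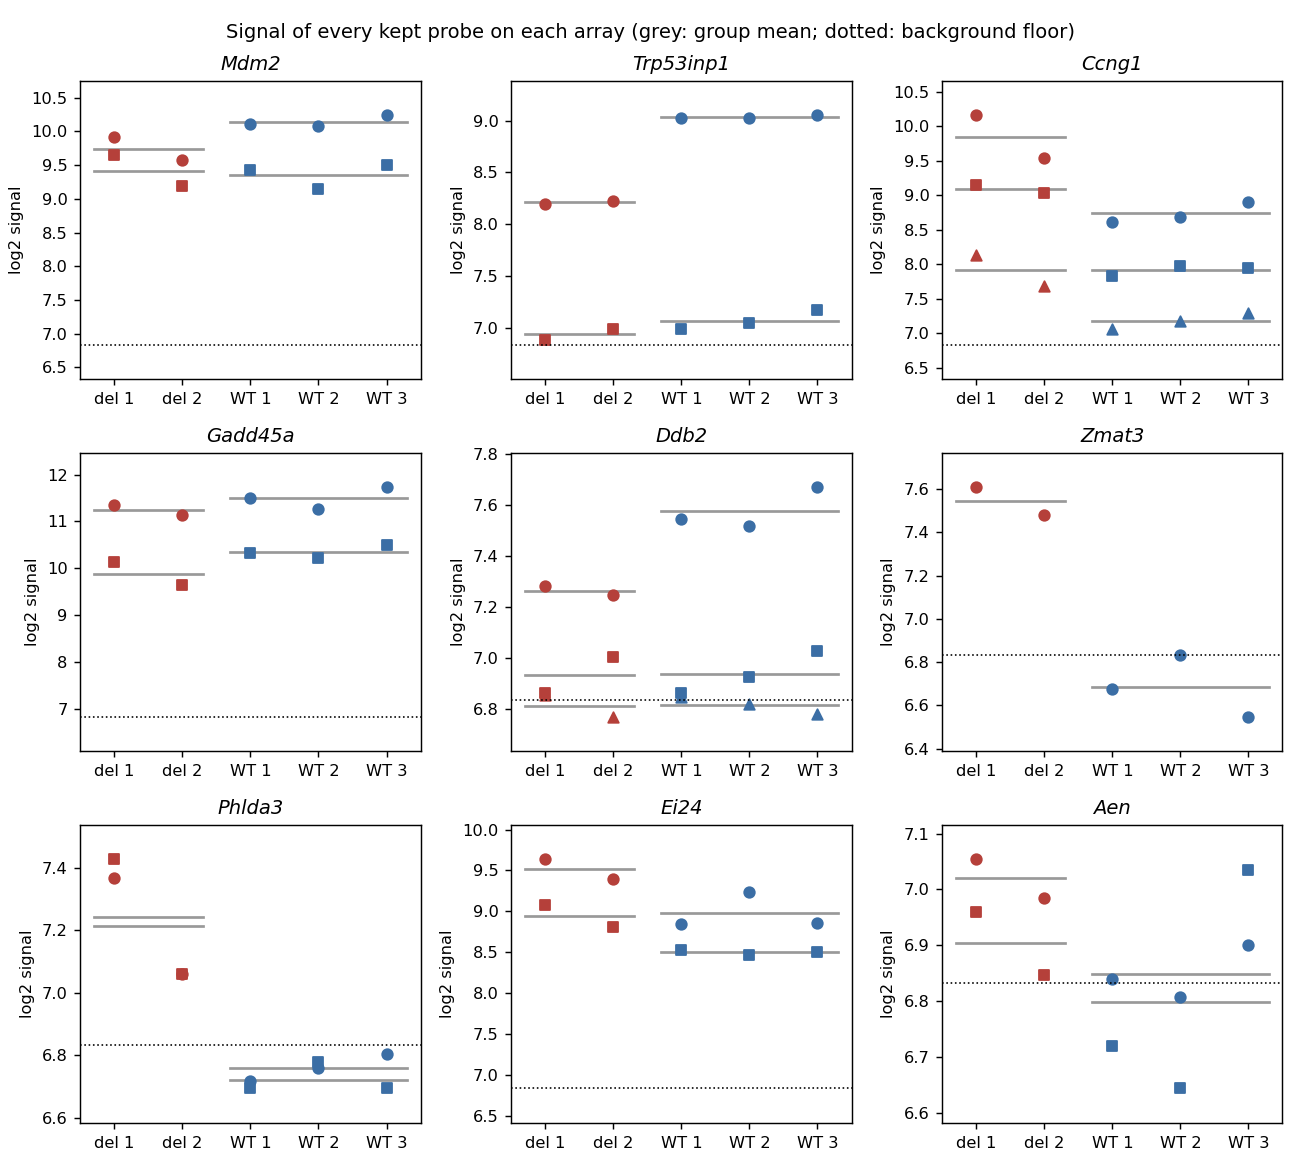
Log2 signal of the 19 kept probes of the 9 measured members on each array, with the arrays labelled Flvcr-deleted in red (del) and those labelled wild-type in blue (WT). Marker shapes are the probes of a gene, grey lines are group means and the dotted line is the background floor of 6.83. Ccng1, Zmat3, Phlda3 and Ei24 are higher on both red arrays than on every blue one, and the upper probe of Trp53inp1 is lower. For Zmat3 and Phlda3, above the floor on red arrays only, the filter fixed this in advance.

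Some facts of the series bear on every value. The Flvcr1 probe above background averaged 9.81 ± 0.10 (SD, n = 2) on arrays labelled Flvcr-deleted and 8.24 ± 0.08 (SD, n = 3) on arrays labelled wild-type, the opposite of a loss of signal. Whether it lies inside the deleted stretch is not stated in the sources used here. It therefore checks nothing, and each direction rests on the labels. Across probes, r was 0.989 to 0.992 within a group and 0.948 to 0.954 between groups. Of the erythroid markers Hba-a1, Slc4a1, Gata1, Tfrc, Klf1, Alas2 and Epor, all 7 lay above the floor on every array, and 5 of them were lower on the arrays labelled Flvcr-deleted. Of the other erythroid markers listed, Epb42 was not above the floor, and Ahsp was not analysed here. Neutrophil markers had a summed signal of 5700 to 10200 on arrays labelled Flvcr-deleted and 30500 to 35600 on arrays labelled wild-type, on the unlogged scale, with 4 of 9 called lower and none higher. For mast cell, basophil and eosinophil markers the sums were 1060 to 1070 on Flvcr-deleted and 5610 to 8370 on wild-type arrays. Of these markers 5 of 6 were lower, Mcpt8 among them above the floor on wild-type arrays only. Neither pair of sums overlapped. Macrophage markers summed to 939 to 1540 on Flvcr-deleted and 1180 to 2420 on wild-type arrays, which overlapped, with 0 of 5 called. B cell markers summed to 318 to 326 on Flvcr-deleted and 480 to 682 on wild-type arrays, with 2 of 3 lower. None of these 3 was above the floor on an array labelled Flvcr-deleted. They were kept through the wild-type arrays alone, and their Flvcr-deleted sums are background signal. T and NK cell markers gave 303 to 485 on Flvcr-deleted and 777 to 1300 on wild-type arrays, with 1 of 2 lower. The lower one was Nkg7 (-1.80), which made up most of the wild-type sums. Cd3e of T cells, near the floor, differed by 0.24 in the other direction and did not pass. The sums of these lymphoid lists did not overlap, and the megakaryocyte list had 1 tested marker, which did not pass. Of the listed markers, Ms4a2 of mast cells, Cd3g of T cells and Pf4, Gp1bb and Ppbp of megakaryocytes were not above the floor, and Cd68 and Cd79a were not analysed here. The part of such cells in the differences of p53 targets was not tested. In bulk RNA, fewer cells of a type and less RNA per cell cannot be told apart.

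Cell cycle arrest and growth control. Ccng1 (chr11:40748552-40755309), which encodes cyclin G1, a p53 target that recruits a phosphatase to MDM2, was higher by all 3 of its probes. Its brightest probe read 10.16 and 9.55 on the arrays labelled Flvcr-deleted, against 8.61, 8.69 and 8.91 on those labelled wild-type. Both Flvcr-deleted values lay above all wild-type values, though they differed from each other by more than the wild-type arrays did. Flvcr-deleted arrays averaged 9.85 ± 0.43 (SD, n = 2) and wild-type arrays 8.74 ± 0.15 (SD, n = 3), that is, higher by 1.11 on the log2 scale (SE 0.18, 2.16-fold, adjusted p = 0.00104). The second probe read 9.15 and 9.04 on the arrays labelled Flvcr-deleted and 7.83, 7.97 and 7.94 on those labelled wild-type, a difference of 1.18 (SE 0.10, adjusted p = 4.27e-05 over all kept probes). With the dimmest probe it was 0.73 (SE 0.14, adjusted p = 0.00343), from 8.14 and 7.69 on the Flvcr-deleted arrays against 7.06, 7.18 and 7.29 on the wild-type arrays. All 3 probes placed Ccng1 higher with no overlap, and the gap between the brighter pair did not differ between the groups (difference of gaps -0.07, SE 0.16, adjusted p = 0.852). Ccng2, the gene of the related cyclin G2, which answers to FOXO factors, differed by -0.01 (SE 0.10, adjusted p = 0.967).

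Gadd45a (chr6:67035096-67037407) encodes a stress protein that binds PCNA and the mitotic kinase CDK1 and activates the p38 and JNK pathways. Its brightest probe read 11.34 and 11.13 on the arrays labelled Flvcr-deleted and 11.51, 11.26 and 11.73 on the arrays labelled wild-type. The groups overlapped, and the difference of -0.26 (SE 0.15, 95% interval -0.60 to 0.07) did not pass (adjusted p = 0.201). Its other probe, with 10.13 and 9.64 on the Flvcr-deleted arrays against 10.32, 10.21 and 10.50 on the wild-type arrays, did not overlap and passed narrowly at -0.46 (SE 0.15, adjusted p = 0.0472 over all kept probes). The gap between both probes did not differ between groups beyond the spread (0.20, SE 0.15, adjusted p = 0.448). Neither probe was higher on the arrays labelled Flvcr-deleted. Without wild-type replicate 2 the brightest probe gave -0.38 and was called, by the narrowest of margins. Of its paralogues, Gadd45g differed by 0.34 (SE 0.32, adjusted p = 0.451), and Gadd45b was not above the floor.

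The inhibitor. Mdm2 (chr10:117688875-117710758) was measured by probes that disagreed. The brightest read 9.91 and 9.58 on the arrays labelled Flvcr-deleted and 10.11, 10.08 and 10.24 on those labelled wild-type. These groups did not overlap, with a Flvcr-deleted mean of 9.75 ± 0.23 (SD, n = 2) and a wild-type mean of 10.14 ± 0.08 (SD, n = 3), and the difference was -0.40 (SE 0.12, 1.32-fold, adjusted p = 0.0299). The second probe read 9.65 and 9.19 on the arrays labelled Flvcr-deleted and 9.43, 9.15 and 9.50 on those labelled wild-type, which overlapped, with a difference of 0.06 (SE 0.16, adjusted p = 0.823 over all kept probes). The gap between the probes was 0.33 on the arrays labelled Flvcr-deleted and 0.78 on those labelled wild-type, and this change in the gap passed on its own (-0.46, SE 0.14, adjusted p = 0.0418, in a fit over the 3477 genes with at least 2 kept probes, of which 17.0% passed). Mdm2 is transcribed from a constitutive promoter and a p53-responsive one, and the sources used here do not state which transcripts each probe detects. Another Mdm2 probe was not above the floor on any array. The call of the brightest probe was lost without Flvcr-deleted replicate 2 (-0.23, adjusted p = 0.278), without wild-type replicate 1 (-0.41, adjusted p = 0.0714) or 3 (-0.35, adjusted p = 0.0720), and with its probes averaged (-0.17, adjusted p = 0.365).

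**Figure D2:**
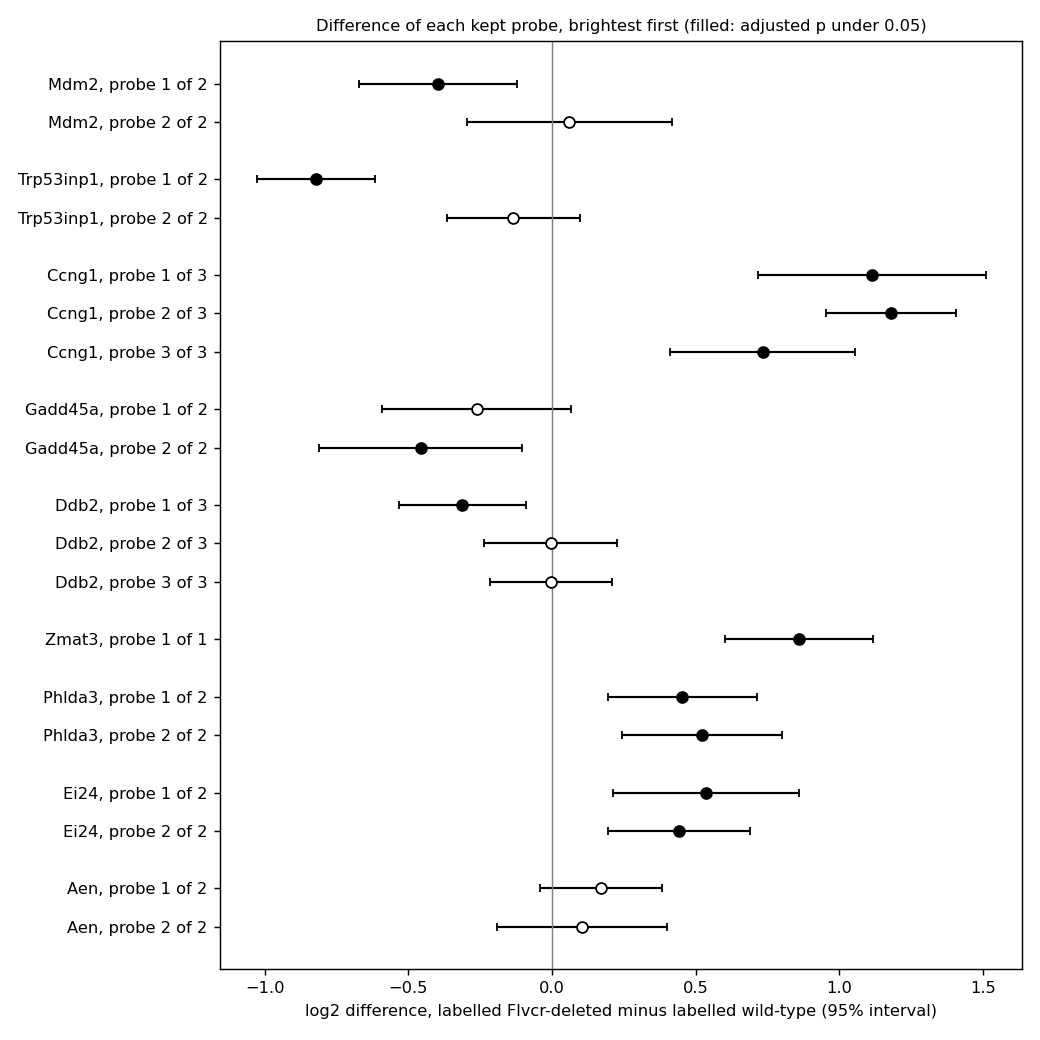
Log2 difference, labelled Flvcr-deleted minus labelled wild-type, of each of the 19 kept probes with its 95% interval, brightest probe of a gene first and filled where the adjusted p is under 0.05 over all kept probes. All probes of Ccng1, Zmat3, Phlda3 and Ei24 lie to the right of 0, while a single probe of Mdm2, Trp53inp1 and Ddb2 lies clearly to the left and the others of these genes have intervals that include 0. For Zmat3 and Phlda3, above the floor on the Flvcr-deleted arrays only, the side of 0 follows from the filter.

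Apoptosis, autophagy and survival. Trp53inp1 (chr4:11156441-11174379) encodes a nuclear stress protein that aids p53 phosphorylation and also promotes autophagy. Its brightest probe had the smallest spread within groups among the 19 kept probes, with 8.20 and 8.22 on the arrays labelled Flvcr-deleted and 9.02, 9.03 and 9.05 on the arrays labelled wild-type. It fell by 0.82 (SE 0.09, 1.77-fold, adjusted p = 1.59e-04), the largest fall among the members. The other probe lay close to the floor, at 6.88 and 6.99 on the Flvcr-deleted arrays against 6.99, 7.04 and 7.17 on the wild-type arrays, and differed by -0.13 (SE 0.10, adjusted p = 0.362 over all kept probes). The gap between them was 1.28 on the arrays labelled Flvcr-deleted and 1.96 on those labelled wild-type, a change of -0.69 (SE 0.14, adjusted p = 0.00310). The part of background signal in this unequal change was not tested. With both probes averaged the gene differed by -0.48 and still passed. Its paralogue Trp53inp2 differed by 0.03 (SE 0.10, adjusted p = 0.871).

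Ei24 (chr9:36779153-36797334) encodes a protein of the endoplasmic reticulum, first described as a p53-induced gene and needed for autophagy. Its brightest probe read 9.64 and 9.40 on the arrays labelled Flvcr-deleted and 8.85, 9.24 and 8.85 on those labelled wild-type. The groups stood apart by little, since wild-type replicate 2 came near the lower Flvcr-deleted value, and the difference was 0.54 (SE 0.14, 1.45-fold, adjusted p = 0.0164). The other probe read 9.08 and 8.81 on the arrays labelled Flvcr-deleted and 8.53, 8.47 and 8.51 on those labelled wild-type. That probe was higher as well (0.44, SE 0.11, adjusted p = 0.0117 over all kept probes). The call of the brightest probe was lost without Flvcr-deleted replicate 1 (0.41, adjusted p = 0.127) or without wild-type replicate 1 (0.47, adjusted p = 0.0708).

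Phlda3 (chr1:135766085-135769134), a small protein with a pleckstrin homology domain that keeps the survival kinase AKT off the membrane, had a signal above the floor on the arrays labelled Flvcr-deleted only. There its brightest probe read 7.37 and 7.06, while the arrays labelled wild-type read 6.72, 6.76 and 6.80, all not above background. The gene was at least 1.30-fold higher, with a Flvcr-deleted mean of 7.21 ± 0.22 (SD, n = 2), a wild-type mean of 6.76 ± 0.04 (SD, n = 3) and a fitted difference of 0.45 (SE 0.11, adjusted p = 0.0123). A bound of this kind sets the brighter mean against the higher of the floor and the signal of the probe on each dim array. The other probe gave nearly the same picture, with 7.43 and 7.06 on the arrays labelled Flvcr-deleted and 6.69, 6.78 and 6.69 on the arrays labelled wild-type (at least 1.33-fold, adjusted p = 0.00948 over all kept probes). Without Flvcr-deleted replicate 1 the difference was 0.30 and did not pass (adjusted p = 0.137). Its paralogues also rose. Phlda2 rose by 0.81 (SE 0.11, adjusted p = 4.40e-04), and Phlda1, not above background on the arrays labelled wild-type, was at least 1.21-fold higher (adjusted p = 0.00339).

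DNA repair and nucleic acid processing. Zmat3 (chr3:32334792-32365665) encodes a zinc finger protein that binds RNA and controls splicing and RNA stability downstream of p53. Its only probe read 7.61 and 7.48 on the arrays labelled Flvcr-deleted and 6.68, 6.83 and 6.55 on those labelled wild-type. None of the wild-type values was above background, and the second of them lay just under the floor. With a Flvcr-deleted mean of 7.54 ± 0.09 (SD, n = 2) and a wild-type mean of 6.69 ± 0.14 (SD, n = 3), Zmat3 was at least 1.64-fold higher (fitted difference 0.86, SE 0.11, adjusted p = 4.04e-04).

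Ddb2 (chr2:91211545-91237132) encodes the subunit that recognises ultraviolet damage for nucleotide excision repair. Of its 4 probes, the brightest read 7.28 and 7.24 on the arrays labelled Flvcr-deleted and 7.54, 7.52 and 7.67 on those labelled wild-type, without overlap. It fell by 0.31 (SE 0.10, adjusted p = 0.0333). The second probe read 6.86 and 7.00 on the Flvcr-deleted arrays and 6.86, 6.92 and 7.03 on the wild-type arrays, and the next 6.85 and 6.77 on the Flvcr-deleted and 6.85, 6.82 and 6.78 on the wild-type arrays, all close to the floor. Both overlapped, with no difference beyond their errors (adjusted p = 0.982 and 0.989 over all kept probes), and the gap of the brighter pair did not differ between groups (-0.31, SE 0.14, adjusted p = 0.157). The last of the 4 was not above the floor on any array. The call of Ddb2 was lost in 6 of 12 alternatives, with adjusted p up to 0.349, and it was lost without Flvcr-deleted replicate 1 (-0.33) or 2 (-0.29) and without wild-type replicate 1 (-0.33) or 3 (-0.27). Ddb1, its partner in the damage-binding complex, differed by 0.16 (SE 0.15, adjusted p = 0.469).

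Aen (chr7:78895927-78911209), a nuclease that p53 induces and that digests DNA in dying cells, gave signals close to the floor in both groups. Its brightest probe read 7.05 and 6.99 on the arrays labelled Flvcr-deleted and 6.84, 6.81 and 6.90 on those labelled wild-type, with 1 wild-type array below the floor. The groups did not overlap, yet the difference of 0.17 (SE 0.10, 95% interval -0.05 to 0.39) did not pass (adjusted p = 0.201). A second probe overlapped (0.10, adjusted p = 0.607 over all kept probes), and the remaining probe was not above the floor. Of the other nucleases of its family, Isg20l2 rose by 0.87 (SE 0.14, adjusted p = 9.59e-04), Rexo4 rose by 0.34 (SE 0.10, adjusted p = 0.0233) and Isg20 fell by 0.64 (SE 0.15, adjusted p = 0.00691).

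Among the arrays labelled Flvcr-deleted, replicate 1 read above replicate 2 for 16 of the 19 kept probes of the members, whichever way the gene moved, against 50.1% of all kept probes. The exceptions were both probes of Trp53inp1 and a dim probe of Ddb2. Replicate 1 also had the higher neutrophil marker sum, 10200 against 5700, which Mpo, Elane, Ctsg and Prtn3 carried, while the other 5 of the 9 markers, S100a8, S100a9, Ltf, Camp and Ngp, read lower on it than on replicate 2. The part of this gap between arrays in the results was not tested.

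**Figure D3:**
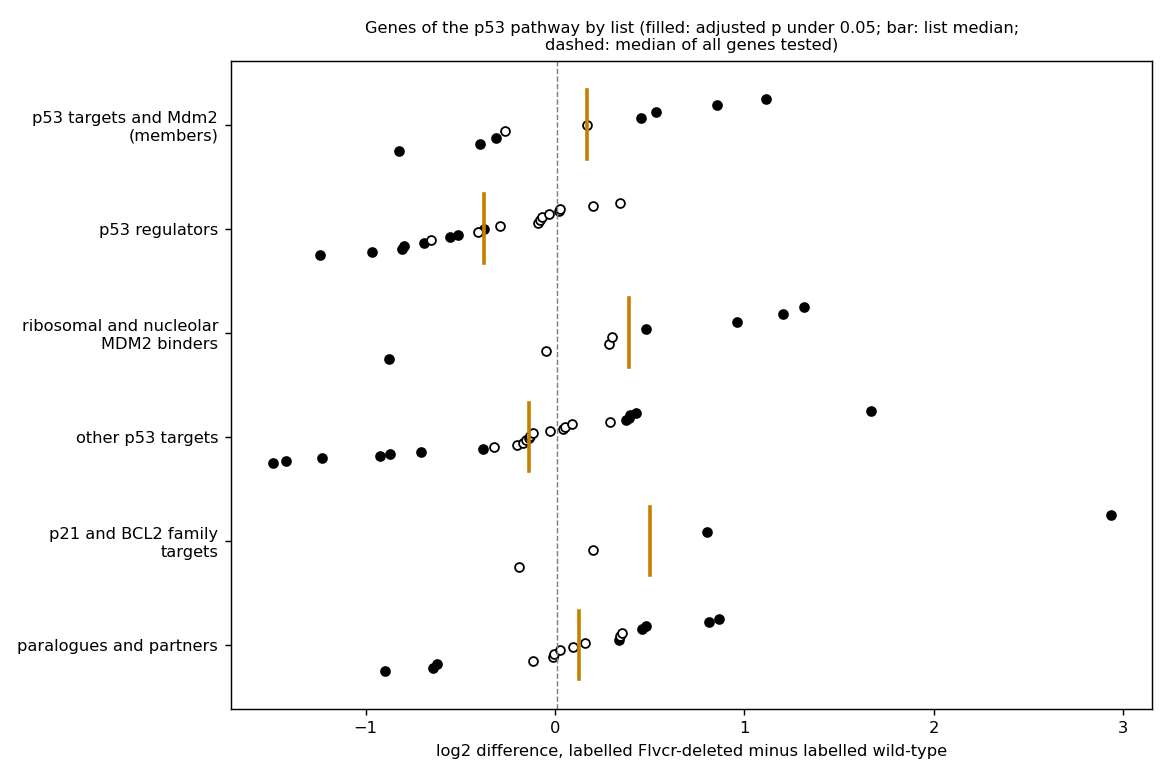
Log2 difference, labelled Flvcr-deleted minus labelled wild-type, of the tested genes of the members and of 5 further lists of the p53 pathway, 1 point a gene, filled where the adjusted p is under 0.05. Orange bars are list medians and the dashed line is the median of all genes tested. The p53 regulators that passed all lie to the left of 0, and every other list but that of p21 and BCL2 family targets has calls on both sides.

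The regulators of p53 that passed were all lower. Of 22 kinases, ubiquitin enzymes, cofactors and relatives of p53, 19 were tested, with a median of -0.38 against 0.01 over all genes. While 22.0% of all genes tested were higher and 17.7% lower, 0 of these regulators were higher and 8 lower. At an unadjusted p under 0.05 (limma), 1 was higher and 9 lower. The higher one was Atm, the kinase that signals double-strand breaks, which differed by 0.35 (SE 0.13, adjusted p = 0.0652). With array weights, with the replicate number as a block or without wild-type replicate 2, 1 regulator was called higher. Ppm1d, the phosphatase WIP1 that p53 induces and that switches p53 off again, fell by 1.24 (SE 0.11, adjusted p = 5.21e-05), with 9.86 and 9.62 on the arrays labelled Flvcr-deleted and 10.99, 11.05 and 10.89 on those labelled wild-type. Usp7, which removes ubiquitin from p53 and MDM2, fell by 0.97 (SE 0.15, adjusted p = 0.00111). Trp53bp1, a reader of chromatin at DNA breaks, fell by 0.81 (SE 0.12, adjusted p = 6.68e-04), and Chek2, a checkpoint kinase that phosphorylates p53, by 0.80 (SE 0.10, adjusted p = 3.39e-04). Ppm1d and Mdm2 thus both encode inhibitors in feedback loops, and the brightest probe of each was lower, though the second Mdm2 probe was not. Mdm4, the other main inhibitor of p53, was not above the floor, and neither were Atr or Trp63. Without wild-type replicate 1, 5 regulators were lower.

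Nucleolar and ribosomal proteins that bind MDM2 had 4 genes higher and 1 lower of 8 tested, from a list of 10, with a median of 0.39. The shares over all genes tested were 22.0% higher and 17.7% lower. Npm1, nucleophosmin, rose by 1.32 (SE 0.12, 2.49-fold, adjusted p = 4.62e-05), with 14.02 and 13.77 on the arrays labelled Flvcr-deleted and 12.46, 12.63 and 12.63 on those labelled wild-type. Nucleolin, Ncl, rose by 1.21 (SE 0.14, adjusted p = 1.89e-04) and nucleostemin, Gnl3, by 0.96 (SE 0.11, adjusted p = 2.10e-04). Rpl23 was lower (-0.87, SE 0.18, adjusted p = 0.00402), but no gene of this list was when the probes of each gene were averaged. Rpl5 and Rpl11, the ribosomal proteins that hold MDM2 in nucleolar stress, were not analysed here. Transcripts of ribosomal proteins and of Npm1 have many near-identical copies in the genome, which probes may not tell apart.

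Other p53 targets went both ways too. Of 32 listed genes 24 were tested, with 5 higher, 7 lower and 12 that missed the threshold. These counts stand beside 22.0% higher and 17.7% lower over all genes tested. The list median was -0.14. Plk3, called higher, was above the floor on the arrays labelled Flvcr-deleted only. Ddit4, an inhibitor of mTORC1 that ATF4 and hypoxia also induce, rose by 1.67 (SE 0.16, adjusted p = 6.51e-05), with 8.88 and 8.42 on the arrays labelled Flvcr-deleted against 6.89, 6.87 and 7.19 on those labelled wild-type. The other rises were small. They included Rrm2b, the p53-induced subunit of ribonucleotide reductase (0.43, SE 0.10, adjusted p = 0.00883), and Sesn2, a leucine sensor that ATF4 induces as well (0.39, SE 0.10, adjusted p = 0.0141). Without Flvcr-deleted replicate 2, 1 gene of this list was higher. Of the 7 falls, Abhd4 gave the smallest (-0.38). Sesn1, the sestrin best known as a p53 and FOXO target, fell by 1.49 (SE 0.12, adjusted p = 3.73e-05), with 9.69 and 9.48 on the arrays labelled Flvcr-deleted and 11.14, 10.90 and 11.20 on those labelled wild-type. The tetraspanin Cd82 fell by 1.42 (SE 0.13), Pml, of nuclear bodies, by 1.23 (SE 0.16) and Pidd1, a death domain protein, by 0.92 (SE 0.11, adjusted p = 2.36e-04). Btg2 and Fas, among the targets most often used as a p53 readout, had group means below the floor, with 1 array of each group above it. Their differences of -0.03 and 0.04 are close to background readings and do not show that these genes were unchanged.

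Cdkn1a, listed with the BCL2 family targets, read 10.42 and 9.82 on the arrays labelled Flvcr-deleted and 7.02, 7.21 and 7.32 on those labelled wild-type, with no overlap. Its log2 difference was 2.94 (SE 0.17, adjusted p = 1.03e-05), beside 1.11 for Ccng1, and the difference between both was not tested. Its other probes passed too, the one at least 2.36-fold higher, since it was not above background on any wild-type array, and the other by 1.10, with 1 of the 3 wild-type arrays above the floor. Of the 6 genes in that list 4 were tested, with 2 higher, 0 lower and 2 that missed the threshold. None was lower at an unadjusted p under 0.05 (limma) either, though 1 was called lower when a gene's probes were averaged. Bid, a BH3-only protein cleaved by caspases, rose by 0.80 (SE 0.13, adjusted p = 0.00106), while Bbc3, the p53-induced killer PUMA, differed by 0.20 (SE 0.15, adjusted p = 0.332). Paralogues and partners of the members had 5 genes higher and 3 lower of 16 tested, with a median of 0.13. Phlda1, 1 of the 5, was above the floor on the arrays labelled Flvcr-deleted only. Beside the counts of both lists, 22.0% of all genes tested were higher and 17.7% lower. Cul4a, the cullin of the ligase that DDB2 joins, fell by 0.90 (SE 0.13, adjusted p = 7.38e-04), whereas its paralogue Cul4b rose by 0.46 (SE 0.10, adjusted p = 0.00431). Pcna, the replication clamp that GADD45A binds and a p53 target itself, fell by 0.63 (SE 0.11, adjusted p = 0.00169).

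**Figure D4:**
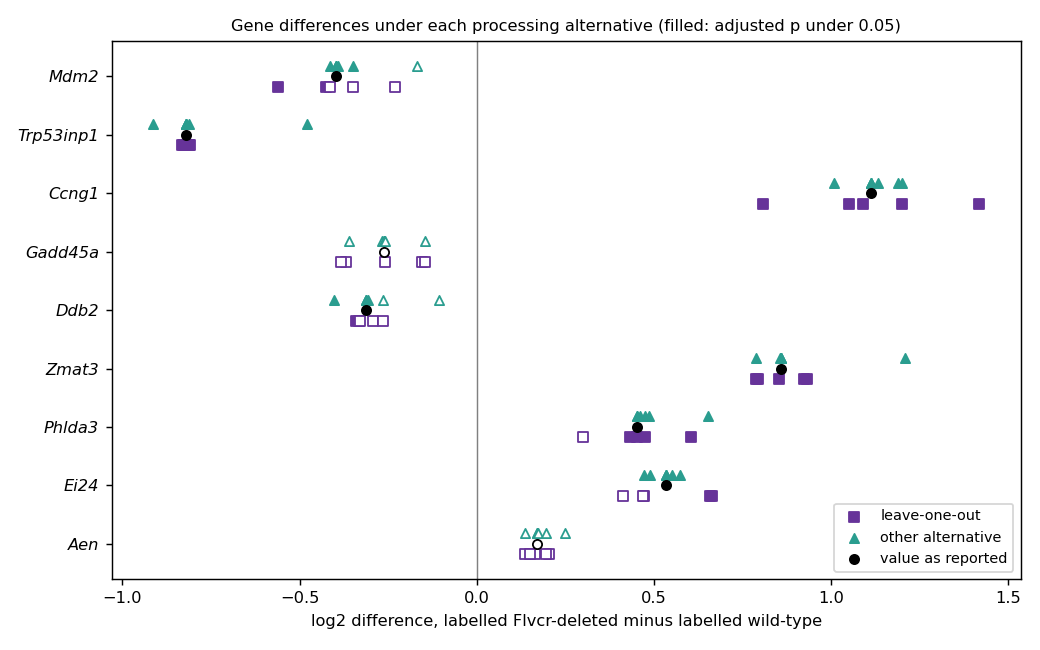
Log2 difference of each measured member, labelled Flvcr-deleted minus labelled wild-type, as reported (circles), with each array left out in turn (squares) and under the other processing alternatives (triangles), filled where the adjusted p is under 0.05. Ccng1, Zmat3 and Trp53inp1 are filled under every alternative in which they were tested, and no gene crosses 0.

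Across alternatives, Ccng1 lay between 0.81 and 1.42, Zmat3 between 0.79 and 1.21 and Trp53inp1 between -0.91 and -0.48, and these passed in each of the alternatives in which they were tested. Phlda3, Ei24, Mdm2 and Ddb2 kept their direction in all of theirs but lost the call in 1, 2, 4 and 6 of them.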

How the data were processed

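Total RNA of 5 marrow erythroblast samples was amplified to biotinylated cRNA for Illumina bead arrays, according to the labels' protocols. Groups and replicate numbers come from the sample titles. The deposited values, 1 column per sample, were taken as log2 signals. The sources used here state neither their scale nor their normalization, which were inferred. Values run from 6.35 to 15.06 over the 5 arrays together, and the same values recur on different arrays, as quantile normalization gives. A second table (10 columns, not normalized) was left out, since its column names match no label. A background floor of 6.83 was set at the mode of the signals, 6.70, raised by 1.64 times the spread below that mode, 0.0829. Of 45281 probes, 34885 have 1 gene symbol, 18 several and 10378 none, and 17547 were above the floor on at least 2 arrays. Each of the 9975 genes with a kept probe was read from its probe of highest mean signal.

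Differences were tested, two-sided, with limma 3.58.1 (lmFit, eBayes) under R 4.3.3, genotype being the only term (3 residual and 5.65 prior degrees of freedom), and adjusted by Benjamini-Hochberg. A fit over all kept probes gave the values of the other probes, and a fit of the gap between the 2 brightest probes of a gene was added after seeing the data. The members and lists were chosen with earlier results of these data known. Named are all members, up to 4 called genes of largest change per list, and Cdkn1a, Mdm4, Rpl5, Rpl11 and Sesn1. Ccng2, Gadd45b, Gadd45g, Trp53inp2, Ddb1, Phlda1, Rexo4, Cul4b, Pcna, Atm, Atr, Trp63, Rrm2b, Plk3, Sesn2, Pidd1, Btg2, Fas, Bbc3, Abhd4 and the cell type markers were named after their values were seen. Promoter windows and coordinates are RefSeq's for GRCm38.p6. The steps were tested on simulated data. Alternatives were normexp background correction, no filter, a floor on all 5 arrays, the mean of a gene's probes, a trended and robust variance, array weights, the replicate number as a block and leaving out each array.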

Additional observations from a re-analysis of the deposited data

How the results depend on the processing

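The number of member genes called higher was 4 under 6 alternatives other than leaving out arrays. It was 2 where the floor was required on all 5 arrays, since Zmat3, Phlda3 and Aen are then not tested. When a gene's probes were averaged, 1 member was lower in place of 3. Leaving out 1 array at a time gave 2 to 4 members higher and 1 to 4 lower, 1634 to 2114 of all genes higher and 1356 to 1750 lower, and 12 to 18 genes of the further p53 lists together higher (16 with all arrays) and 15 to 21 lower (19 with all arrays). Where 1 Flvcr-deleted array is left, its spread is taken to be that of the wild-type arrays. The replicate number as a block, with 2 members lower in place of 3 and 4 higher, left Ddb2 short of the threshold (-0.27, adjusted p = 0.0918), and 22 genes of the further lists were higher and 22 lower. The labels do not say that equal numbers mark a shared animal or day. Deviations of same-numbered arrays from their group means correlated by -0.03 for replicate 1 and 0.10 for replicate 2. With 2 Flvcr-deleted arrays, the deviations of these arrays mirror each other, so the correlations cannot tell whether equal numbers mark more than a number. No member changed direction under any alternative. Precision is limited by the number of arrays, and signals near the floor bound what can be seen of Aen, Ddb2, Phlda3 and Zmat3.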
